A study of Oryza sativa with 239 samples.

Results

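DRO1 (LOC_Os09g26840), qSOR1 (LOC_Os07g42290), LAZY1 (LOC_Os11g29840) and TAC1 (LOC_Os09g35980) are genes of root and shoot angle in rice, chosen by name and not by their values. They are 4 of the 55986 gene identifiers that were counted in 239 leaf libraries. DRO1 and TAC1 were among the 28297 genes that passed a filter on low counts. qSOR1 and LAZY1 did not pass it. The identifiers place DRO1 and TAC1 on chromosome 9, qSOR1 on chromosome 7 and LAZY1 on chromosome 11, and no table at hand gave their start, end or sequence.

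The plants were 40 cultivars and lines of Oryza sativa, each kept under drought or irrigated throughout as control, and sampled on day 5. IR64 is a lowland indica cultivar. The label KP was taken to mean Kinandang Patong, the upland cultivar from which the DRO1 locus was taken. Dro1-NIL was taken to be the near-isogenic line with that locus in an IR64 background. The other 37 are Koshihikari, a japonica cultivar, and numbered entries of the World Rice Core collection (WRC), kept as a sample of the diversity of rice. Each cultivar had 3 libraries per treatment, except Dro1-NIL with 2 under drought. The tissue was the youngest fully expanded leaf together with the one before it, from pots with 1 plant each. The labels do not say that every library came from its own plant, so p-values measure the spread between these libraries, which may be partly technical. The sample labels name a moderate drought with sampling on day 5, while the protocol speaks of severe drought and of watering again afterwards. The labels were followed, and the severity of the drought is known only as far as they give it.

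DRO1, qSOR1, LAZY1 and TAC1 are placed in the IGT family, plant proteins that set the angle at which organs grow. DRO1 acts in the root tip, where it takes part in gravitropism and gives steeper roots; the IR64 allele encodes a shortened protein, while the allele of Kinandang Patong is functional. qSOR1 is a relative of DRO1 named after rooting at the soil surface. LAZY1 acts in shoot gravitropism through auxin transport, and its loss lets tillers spread. TAC1 works the other way round and widens the tiller angle. Less TAC1 mRNA goes with a compact plant, and an allele with reduced mRNA has been described from compact japonica cultivars.

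Drought libraries had a median depth of 17 M (mega) reads assigned to genes, and the 120 control libraries one of 14.8 M. Control depths ran from 5.99 M to 37.4 M, while 4 drought libraries held under 1 M reads, among them WRC47 drought replicate 3 with 362. Levels are given in CPM, counts scaled to a common library total. A count of 3 reads, taken as the floor of detection, corresponds to 0.176 CPM in a drought library of median depth and to 0.202 CPM in a control library of median depth. All control and all drought libraries carry separate name series, so treatment and any difference in handling between those series cannot be told apart. Within WRC09, drought and control plants differed in 4801 genes (edgeR adjusted p under 0.05, 17% of those tested), and in 11.1% the fold was 2 or more as well. The other 39 cultivars had 0.511% of their tests called. WRC09 had been found to differ between treatments in cultivar-specific genes in earlier work on these counts, and results that rest on it are given with and without it. The libraries of WRC16 control replicate 3, WRC16 drought replicate 2 and WRC35 control replicate 3, which lay midway between cultivars in that work, had 0.133, 0 and 0.107 CPM of TAC1.

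TAC1 fell into a pair of separate ranges across the cultivars, in both treatments. Under drought, 21 cultivars had means of 1.35 CPM (WRC04) to 4.55 CPM (WRC23), and 19 had means of 0 to 0.139 CPM (WRC34). Under control, 20 cultivars had means of 1.67 CPM (WRC50) to 5.07 CPM (WRC22), and the other 20 had means of 0 to 0.252 CPM (Dro1-NIL). The ranges were divided at the widest step in the order of means on a log2 scale, so that no mean lies between them follows from this choice. The width of the step was observed, from 0.139 to 1.35 CPM under drought and from 0.252 to 1.67 CPM under control. Cultivars differed beyond the spread of their libraries under drought (edgeR adjusted p = 3.7e-60) and under control (edgeR adjusted p = 4e-62). That alone does not single TAC1 out, since 96% of the tested genes were called among cultivars under drought and 95.1% under control. In bulk leaf, fewer cells that make the mRNA and less mRNA per cell cannot be told apart.

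The gap also held for single libraries of at least 1 M reads. Under drought the highest library of the lower range was WRC34 replicate 3 with 0.283 CPM (2 reads), and the lowest of the upper range was WRC48 replicate 3 with 0.53 CPM (3 reads). Under control the highest library of the lower range was Dro1-NIL replicate 3 with 0.452 CPM (6 reads), and the lowest of the upper range was WRC06 replicate 3 with 1.1 CPM (19 reads). Each library of the upper range thus held TAC1 reads, while 23 of the 53 drought libraries and 20 of the 60 control libraries of the lower range held 0. The width of the gap under drought is limited by the few reads on both sides of it.

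**Figure D1:**
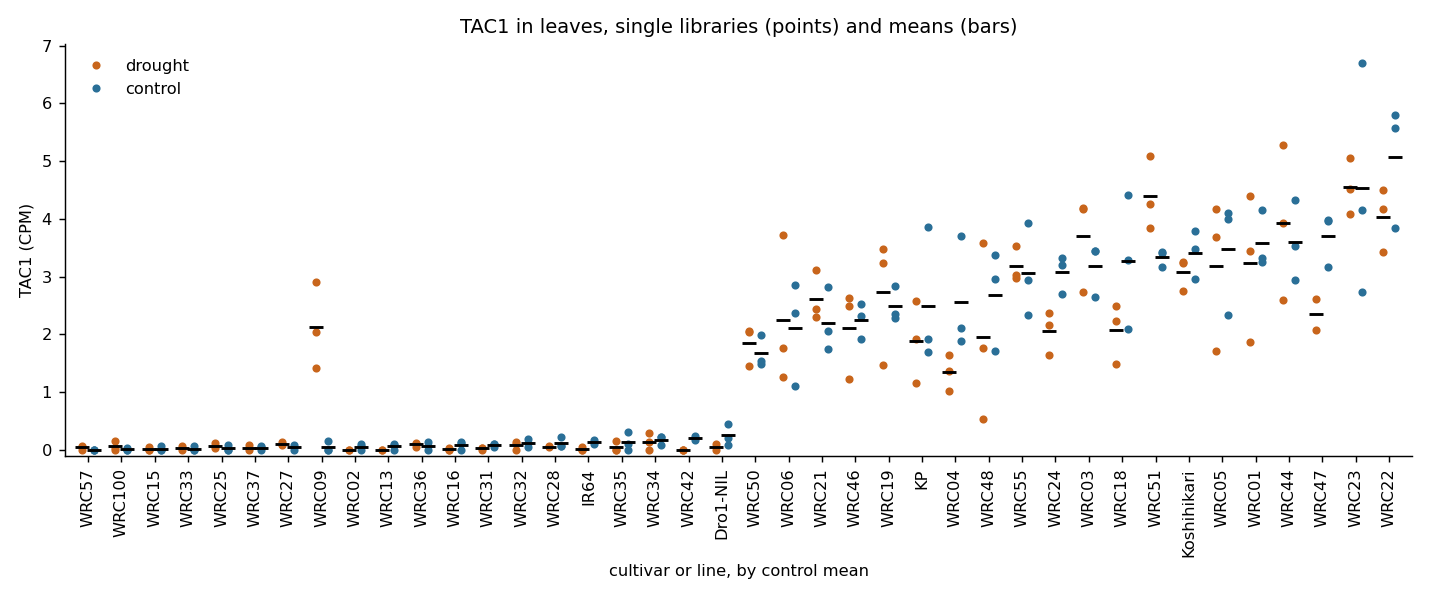
TAC1 in single libraries of at least 1 M reads (points, CPM, linear axis) for drought and control leaves of 40 cultivars and lines, ordered by their control mean, with the mean of each group as a bar. Points fall into a low band up to 0.452 CPM and a band from 0.53 CPM upward, and WRC09 has its drought points in the upper band and its control points in the lower.

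The upper range was continuous. WRC23 had the highest drought mean, 4.55 ± 0.484 CPM, against 4.53 ± 2.01 CPM under control (SD, n = 3 each, as for the cultivars that follow). WRC22 had 4.03 ± 0.546 CPM under drought and the highest control mean, 5.07 ± 1.07 CPM. WRC51 had 4.4 ± 0.635 CPM under drought and 3.34 ± 0.142 CPM under control, higher under drought with no overlap of libraries and no call. These were followed by WRC44 with 3.93 ± 1.34 CPM under drought and 3.6 ± 0.694 CPM under control, and by WRC03 with 3.7 ± 0.833 CPM under drought and 3.18 ± 0.459 CPM under control. The japonica cultivar Koshihikari stood in the middle of the upper range, with 3.08 ± 0.288 CPM under drought and 3.41 ± 0.415 CPM under control. WRC01, which is Nipponbare in the collection, had 3.24 ± 1.28 CPM under drought and 3.58 ± 0.496 CPM under control, close to Koshihikari. Koshihikari in the upper range and the indica cultivar IR64 in the lower thus lie the other way round from the described japonica allele with reduced mRNA. The TAC1 allele of each cultivar was not examined, and whether the gene model used for counting takes up the mRNA of each allele equally was not tested. The TAC1 levels are therefore reads counted on that model.

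The middle of the upper range held the larger part of its cultivars. WRC55 had 3.18 ± 0.307 CPM under drought and 3.07 ± 0.801 CPM under control, and WRC05 had 3.19 ± 1.3 CPM under drought and 3.48 ± 0.99 CPM under control. WRC19 had 2.73 ± 1.1 CPM under drought and 2.49 ± 0.303 CPM under control, and WRC21 had 2.62 ± 0.429 CPM under drought and 2.21 ± 0.554 CPM under control. In WRC55, WRC05, WRC19 and WRC21 the treatments overlapped. WRC24 had 2.16, 1.64 and 2.37 CPM in drought libraries, against 3.33, 2.7 and 3.21 CPM in control libraries, with no overlap and no call. WRC18 had 2.07 ± 0.52 CPM under drought and 3.27 ± 1.16 CPM under control, WRC48 1.96 ± 1.54 CPM under drought and 2.68 ± 0.865 CPM under control, and WRC46 2.12 ± 0.775 CPM under drought and 2.26 ± 0.31 CPM under control. Each of these overlapped between treatments. WRC47 had 2.61 and 2.08 CPM in its deep drought libraries, against 3.96, 3.97 and 3.16 CPM in control libraries, and its drought replicate 3, of 362 reads, held 0.

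The lowest means of the upper range belonged to WRC04 under drought and to WRC50 and WRC06 under control. WRC06 had 2.25 ± 1.3 CPM under drought and 2.11 ± 0.904 CPM under control. WRC04 had 1.35 ± 0.311 CPM under drought and 2.56 ± 0.994 CPM under control. WRC50 had 1.85 ± 0.34 CPM under drought and 1.67 ± 0.271 CPM under control. Of the 39 pairs of neighbours in the order of means, libraries of 1 pair did not overlap in each treatment, and that pair was the one across the gap: WRC04 above WRC34 under drought and WRC50 above Dro1-NIL under control. Inside either range no neighbours were separated, so the order there is loose.

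In the lower range TAC1 was at the limit of what this depth can show. The 53 drought libraries held at most 4 reads each, and the 60 control libraries at most 6. Reads pooled over both treatments gave the lowest level in WRC15, 0.0211 CPM (95% exact Poisson interval 0.00256 to 0.0762, 2 reads). WRC100 had 0.0235 CPM (0.00485 to 0.0687, 3 reads). At the top of the range were Dro1-NIL with 0.19 CPM (0.0981 to 0.332, 12 reads) and WRC34 with 0.138 CPM (0.0753 to 0.231, 14 reads). These intervals, like the others below, cover counting error only. TAC1 reads were thus counted only in traces in the lower range, and the order there was not resolved.

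Position above or below the gap was the same in both treatments for 39 cultivars, of which 20 lay above it and 19 below it. WRC09 was the exception. Its drought libraries had 2.91, 1.42 and 2.04 CPM of TAC1 (60, 25 and 8 reads), against 0.155, 0 and 0 CPM in its control libraries (2, 0 and 0 reads). The treatments did not overlap in WRC09, and the ratio of the pooled levels was 50.1 (13.5 to 420, exact interval). The fitted log2 fold change was 5.35 ± 0.65 (SE; edgeR adjusted p = 6.5e-12). WRC09 was also the cultivar in which 17% of all tested genes were called, and the part of a mismatch between its plants in the TAC1 values was not tested.

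**Figure D2:**
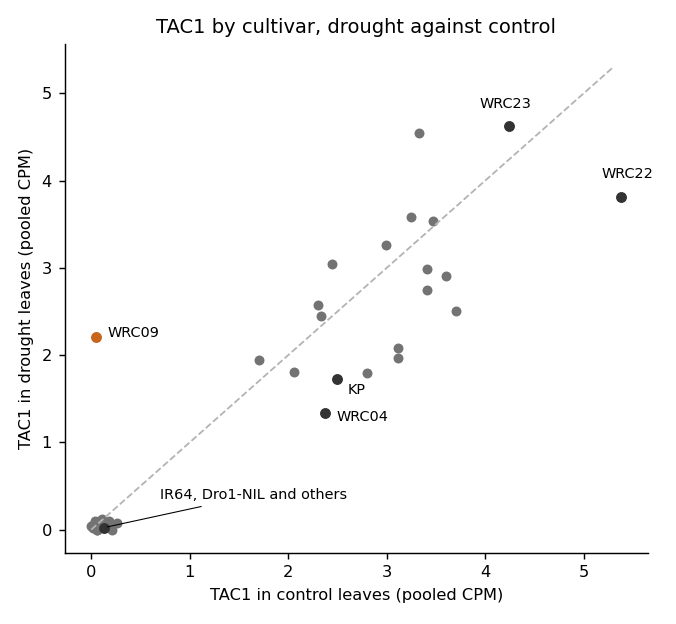
TAC1 in drought leaves (vertical axis, CPM pooled over libraries) against control leaves (horizontal axis) of each cultivar or line, with the line of equality dashed. The 20 cultivars above the gap in both treatments scatter around the line, 19 sit near the origin, and WRC09 alone has a drought level of 2.2 CPM at a control level of 0.044 CPM.

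Apart from WRC09, TAC1 was not called as changed by drought. Over the 40 cultivars its log2 fold change was -0.10 ± 0.10 (SE, edgeR adjusted p = 0.46), with pooled levels higher under drought in 19 and lower in 21. In this comparison 44.4% of the tested genes were called, and in 1.33% the fold was 2 or more as well. Among the calls were 0 of the 2 tested members (0 also at an unadjusted p under 0.05, and 0 by DESeq2 on counts summed per cultivar). Without WRC09 the log2 fold change of TAC1 was -0.20 (adjusted p = 0.052). The responses of the cultivars differed from each other for TAC1 (edgeR adjusted p = 2.8e-05 over 39 contrasts, where 3.87% of genes were called). Without WRC09 that difference was not called (adjusted p = 0.71), nor was it without replicate 1 (0.36) or replicate 3 (0.13), while without replicate 2 it was (0.0027).

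Tested cultivar by cultivar, TAC1 was called in 1 of 40, WRC09, where 0.923% of all tests over the 40 cultivars were called. At an unadjusted p under 0.05 stood also WRC04 and WRC42. In WRC42, drought libraries held 0 reads of TAC1, against 0.236, 0.213 and 0.168 CPM in control libraries (3, 3 and 2 reads; edgeR adjusted p = 0.11). WRC42 lay in the lower range throughout, so the difference is one between traces and none detected. In WRC04, drought libraries had 1.03, 1.65 and 1.37 CPM, against 3.7, 2.11 and 1.88 CPM in control libraries, a log2 fold change of -0.90 ± 0.43 (edgeR adjusted p = 0.4). The libraries of WRC04 did not overlap between treatments.

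Within the 20 cultivars above the gap in both treatments, TAC1 levels under drought and under control were related. Over CPM pooled per cultivar and treatment, on a linear scale, Pearson's r was 0.648 and Spearman's rho 0.648 (permutation p = 0.0018 and 0.0027, both 0.0027 after adjustment over 4 coefficients). Without WRC22 and WRC50, the cultivars farthest from the median, r was 0.642. No coefficient is given over all 40 cultivars, because they fall into separate clusters, nor for the lower range, where single reads set the values. Cultivars share ancestry and are not fully independent points.

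DRO1 was detected in leaves at a low level. It had 448 reads in drought libraries and 323 in control libraries, a pooled level of 0.234 CPM (0.213 to 0.257) under drought and 0.181 CPM (0.162 to 0.202) under control. No read of DRO1 was counted in 28 drought and 22 control libraries, and the most in any library was 22 reads. The highest single levels were 1.07 CPM under drought and 0.919 CPM under control. Single libraries thus stand near the floor of detection, and most of what can be said of DRO1 rests on sums over libraries.

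Over both treatments, and under control, DRO1 was highest in WRC01 and Koshihikari. WRC01 had 0.477, 1.04 and 0.314 CPM in drought libraries (9, 15 and 1 reads) and 0.529, 0.501 and 0.848 CPM in control libraries (10, 7 and 6 reads), which makes 0.628 CPM over both treatments (0.463 to 0.832, 48 reads). Koshihikari had 0.512, 0.44 and 0.258 CPM in drought libraries and 0.39, 0.919 and 0.394 CPM in control libraries, and 0.516 CPM over both (0.372 to 0.698, 42 reads). WRC01 and Koshihikari thus had DRO1 reads in each of their 6 libraries, and their treatments overlapped. Next in order over both treatments were WRC19 with 0.465 CPM (0.329 to 0.638), WRC51 with 0.408 CPM (0.29 to 0.557), WRC44 with 0.358 CPM (0.249 to 0.498) and WRC21 with 0.325 CPM (0.223 to 0.459). The drought order differed: by the mean of libraries, WRC01 had 0.61 ± 0.38 CPM, followed by WRC19 with 0.482 ± 0.238 CPM, WRC51 with 0.481 ± 0.138 CPM, WRC44 with 0.454 ± 0.364 CPM, WRC22 with 0.428 ± 0.133 CPM and Koshihikari with 0.404 ± 0.131 CPM (SD, n = 3 each). These cultivars overlapped with their neighbours in that order.

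Between these and the low end the levels ran without a break. WRC22, for example, had 0.371, 0.332 and 0.58 CPM in drought libraries, against 0.0522, 0.296 and 0.232 CPM in control libraries, with no overlap and no call. WRC55 had 0.177, 0.0726 and 0 CPM in drought libraries, against 0.104, 0.68 and 0.357 CPM in control libraries. WRC22 and WRC55 thus lay on opposite sides of equality, and neither was called. WRC03 had 0.171, 0.204 and 0.399 CPM in drought libraries and 0.27, 0.221 and 0.279 CPM in control libraries, with little difference among the control replicates.

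At the other end stood WRC06 with 0.0279 CPM over both treatments (0.00576 to 0.0816, 3 reads), WRC02 with 0.0341 CPM (0.00414 to 0.123, 2 reads), WRC37 with 0.0584 CPM (0.0214 to 0.127, 6 reads) and WRC32 with 0.0666 CPM (0.0288 to 0.131, 8 reads). WRC06 had 0.0475, 0 and 0 CPM in drought libraries (1, 0 and 0 reads) and 0, 0 and 0.116 CPM in control libraries (0, 0 and 2 reads). The intervals of WRC06, WRC02, WRC37 and WRC32 end below those of WRC01 and Koshihikari. Cultivars differed in DRO1 beyond the spread of their libraries under drought (edgeR adjusted p = 0.0007) and under control (edgeR adjusted p = 0.0043), as did 96% of the tested genes under drought and 95.1% under control. Neither call held without replicate 3, where the adjusted p was 0.081 under drought and 0.1 under control. Of the 39 pairs of neighbours in the order, none was separated in either treatment, and no gap like that of TAC1 was seen for DRO1. With so few reads per library neighbours overlap readily, so this check could hardly have shown a gap.

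**Figure D3:**
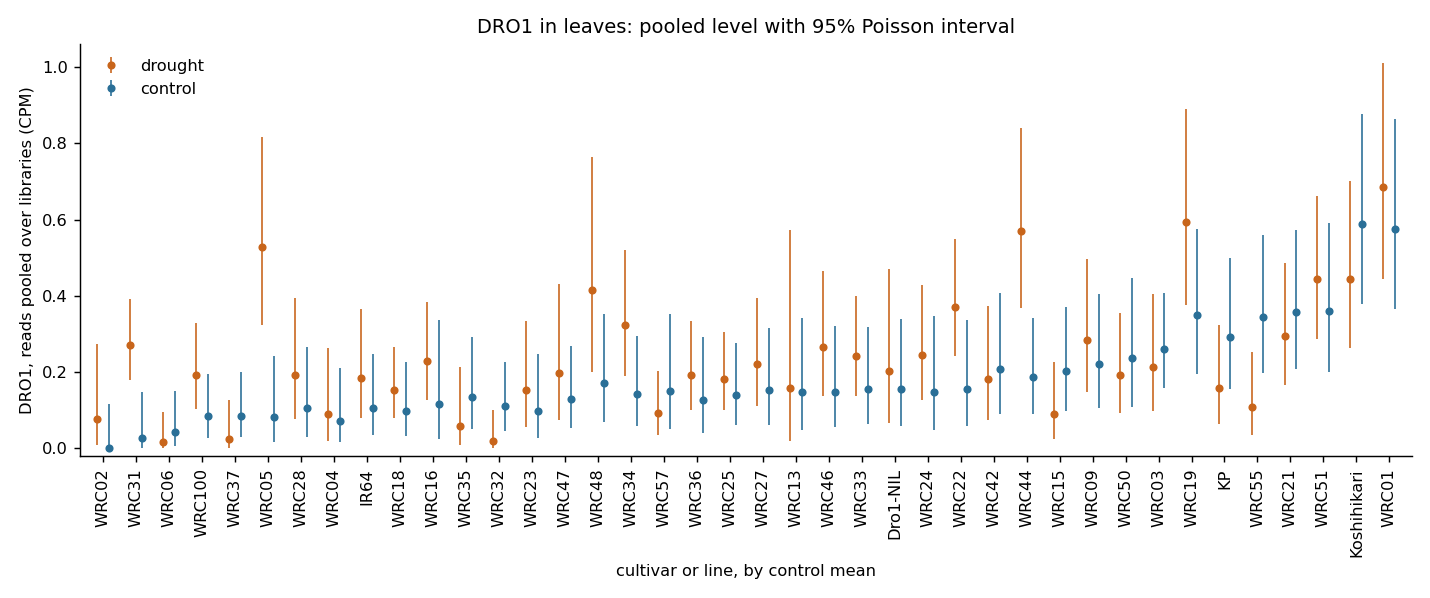
DRO1 in drought and control leaves of 40 cultivars and lines, ordered by control mean: CPM from reads pooled over the libraries of a group (points, linear axis) with 95% exact Poisson intervals, which cover counting error only. WRC01 and Koshihikari stand highest under control, the control intervals of neighbours overlap, and intervals reach upward from near 0 in the cultivars at the left.

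The order of cultivars for DRO1 was partly shared between treatments. Levels here are CPM pooled over the libraries of a cultivar and treatment, on a linear scale. Over 40 cultivars, Pearson's r between drought and control was 0.565 (permutation p = 0.00036, adjusted 0.0014) and Spearman's rho 0.48 (permutation p = 0.002, adjusted 0.0027). Without Koshihikari and WRC01, the cultivars farthest from the median under control, r was 0.378. The upper end of the relation thus rests in part on WRC01 and Koshihikari. As for TAC1, cultivars share ancestry, while the permutation treats them as independent points.

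Drought gave no call for DRO1 at the threshold used. Its log2 fold change over the 40 cultivars was 0.30 ± 0.15 (SE, edgeR adjusted p = 0.1, unadjusted 0.051). The level pooled over libraries was higher under drought in 27 cultivars and lower in 13. These pooled levels averaged 0.239 ± 0.16 CPM under drought and 0.181 ± 0.128 CPM under control (SD over 40 cultivars). Pooling gives deep libraries more weight. By the mean of libraries some cultivars changed sides, for example Dro1-NIL with 0.117 CPM under drought and 0.163 CPM under control. With library sizes scaled by DESeq2-type size factors in place of TMM, the adjusted p was 0.046 at a log2 fold change of 0.35. Responses of DRO1 were not found to differ among cultivars (edgeR adjusted p = 0.99).

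Within single cultivars, DRO1 was called in 0 of 40 by edgeR, where 0.923% of all tests over the 40 cultivars were called. No other tool was run for this test. At an unadjusted p under 0.05 stood 2, WRC05 and WRC31, and some of 40 tests can pass that threshold without any change. In WRC05, 1 drought library had 1.07 CPM (20 reads) and the other drought libraries 0, against 0.146, 0 and 0.0909 CPM in control libraries, so the difference rests on drought replicate 2 alone. WRC31 had 0.375, 0.0643 and 0.155 CPM in drought libraries (22, 1 and 4 reads), against 0, 0.0965 and 0 CPM in control libraries (0, 1 and 0 reads). The ratio of the pooled levels in WRC31 was 10.2 (1.68 to 417, exact interval), and its libraries overlapped.

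LAZY1 was close to undetectable in leaves. It had 47 reads in drought libraries and 47 in control libraries, a pooled level of 0.0246 CPM (0.018 to 0.0327) under drought and 0.0263 CPM (0.0194 to 0.035) under control. Reads were found in 29 drought and 27 control libraries, and in 26 of the 40 cultivars. WRC03 control replicate 1 held the most, 9 reads or 0.27 CPM, and the other libraries of WRC03 held 0 or 1. WRC37 control replicate 2 held 5 reads (0.209 CPM), and WRC18 control replicate 2 and WRC35 drought replicate 1 held 4 each (0.339 and 0.161 CPM). Such libraries came from different cultivars and were not matched by the others of their group. In WRC25 the reads were more evenly spread. It had 0, 0.119 and 0.0542 CPM in drought libraries (0, 3 and 2 reads), against 0.12, 0.039 and 0.0684 CPM in control libraries (2, 1 and 1 reads). WRC42 had 0.0514, 0.201 and 0.327 CPM in drought libraries (1, 2 and 3 reads), against 0, 0 and 0.084 CPM in control libraries (0, 0 and 1 reads). Tested without the filter on low counts, LAZY1 was not found to differ between drought and control (edgeR adjusted p = 1), nor among cultivars under drought (edgeR adjusted p = 0.14) or control (edgeR adjusted p = 0.11).

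qSOR1 had 13 reads in all, 9 in drought libraries and 4 in control libraries, with at most 1 read in any library. The pooled level was 0.0047 CPM (0.00215 to 0.00893) under drought and 0.00224 CPM (0.000611 to 0.00574) under control. The reads were spread over 11 cultivars and came to at most 2 in any of them. Without the filter on low counts, qSOR1 was not found to differ between drought and control (edgeR adjusted p = 0.59). At this depth qSOR1 can be neither ordered among cultivars nor compared between treatments. Levels are not compared between the 4 genes, because no gene lengths were at hand.

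Dro1-NIL, KP and IR64 bear on the DRO1 locus, and in leaves their low levels of its mRNA overlapped. Under drought, Dro1-NIL had 0.234 and 0 CPM of DRO1 (5 and 0 reads), KP had 0.321, 0 and 0.129 CPM (6, 0 and 1 reads), and IR64 had 0.236, 0.174 and 0 CPM (5, 3 and 0 reads). Under control, Dro1-NIL had 0.141, 0.272 and 0.0754 CPM (2, 3 and 1 reads), KP had 0.563, 0.116 and 0.271 CPM (7, 2 and 4 reads), and IR64 had 0, 0.128 and 0.154 CPM (0, 2 and 3 reads). The 3 lines overlapped in both treatments.

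No pair of these lines was found to differ in DRO1 at this depth. Dro1-NIL against IR64 gave a log2 fold change of 0.08 ± 1.08 under drought and 0.59 ± 1.03 under control (SE; edgeR adjusted p = 1 in both). KP against IR64 gave -0.15 ± 0.94 under drought (adjusted p = 0.97) and 1.5 ± 0.93 under control (adjusted p = 0.22). Dro1-NIL against KP gave 0.23 ± 1.09 under drought (adjusted p = 0.97) and -0.91 ± 0.91 under control (adjusted p = 0.5). The control values moved with single replicates: leaving out a replicate number gave 0.37 to 2.07 for KP against IR64 and 0.23 to 1.42 for Dro1-NIL against IR64. The ratio of pooled levels, Dro1-NIL over IR64, was 1.09 under drought (0.281 to 3.79) and 1.47 under control (0.374 to 6.09), and KP over IR64 was 0.85 under drought (0.262 to 2.68) and 2.76 under control (0.923 to 9.88). These intervals allow differences of several fold, and the test does not show that the lines have equal DRO1 mRNA. The changes with drought did not differ detectably either, with a difference in log2 fold change of -0.51 ± 1.49 between Dro1-NIL and IR64 and of -1.66 ± 1.34 between KP and IR64 (edgeR adjusted p = 1 in both). Over all tested genes, 0.00353% were called in the first of these tests and 0.0106% in the second.

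**Figure D4:**
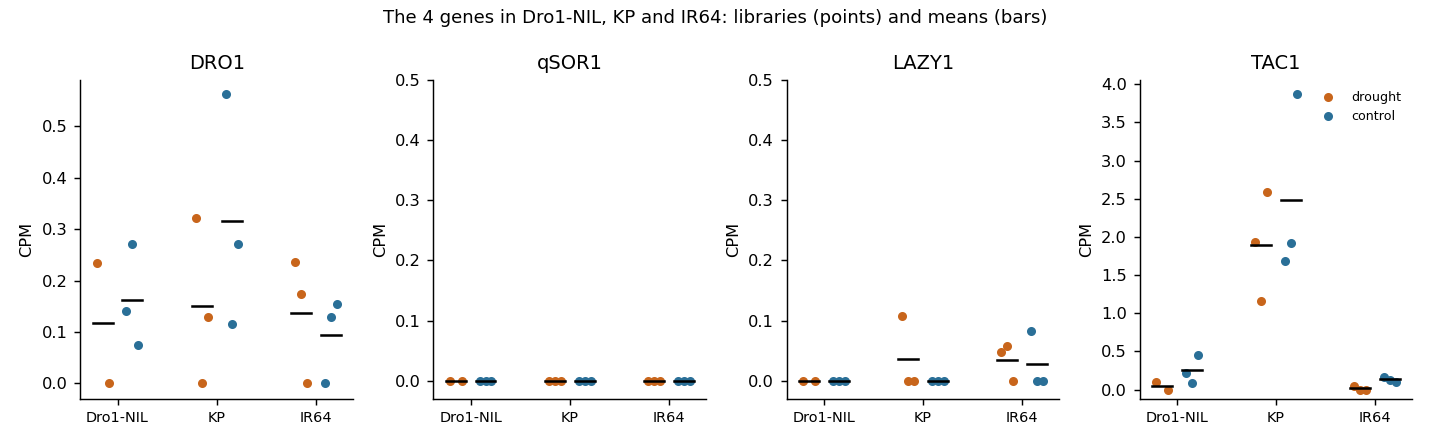
DRO1, qSOR1, LAZY1 and TAC1 (CPM, linear axes that differ between panels) in Dro1-NIL, KP and IR64 under drought and control: single libraries as points, group means as bars. KP stands at 1.16 CPM or more of TAC1 in each library and Dro1-NIL and IR64 at 0.452 CPM or less, while the lines overlap for DRO1 and qSOR1 is at 0 in each library.

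TAC1 separated KP from Dro1-NIL and IR64. Under drought, Dro1-NIL had 0.0937 and 0 CPM of TAC1 (2 and 0 reads), KP had 1.93, 1.16 and 2.58 CPM (36, 21 and 20 reads), and IR64 had 0.0473, 0 and 0 CPM (1, 0 and 0 reads). Under control, Dro1-NIL had 0.212, 0.0907 and 0.452 CPM (3, 1 and 6 reads), KP had 1.69, 1.91 and 3.87 CPM (21, 33 and 57 reads), and IR64 had 0.166, 0.128 and 0.103 CPM (2 reads each). No library of KP overlapped with one of Dro1-NIL or IR64 in either treatment.

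KP against IR64 gave a log2 fold change of 5.91 ± 0.74 for TAC1 under drought (SE; edgeR adjusted p = 7.8e-12, 34.1% of genes called) and of 4.20 ± 0.55 under control (edgeR adjusted p = 4.4e-11, 32.6% called). The drought value rests on 1 read in IR64, and the ratio of the pooled levels was 74.8 there (13 to 2992, exact interval) and 19.6 under control (8.74 to 54.6). Dro1-NIL against KP gave -4.42 ± 0.78 under drought (edgeR adjusted p = 1.4e-06, 23.1% called) and -3.23 ± 0.51 under control (edgeR adjusted p = 3.6e-08, 29.9% called). These calls held without each replicate number, but the drought values moved. KP against IR64 under drought was 7.60 without replicate 1, where IR64 had its single read, and Dro1-NIL against KP was -8.08 without replicate 2, where Dro1-NIL had its 2 reads; neither value is a bound, since a group is then at 0. Dro1-NIL and IR64, in contrast, were not told apart in TAC1: the log2 fold change was 1.49 ± 1.25 under drought, with 0.113% of genes called, and 0.96 ± 0.68 under control, with 0.148% called (edgeR adjusted p = 1 in both). The response of TAC1 to drought was not found to differ between KP and IR64 (difference in log2 fold change 1.71 ± 1.06, edgeR adjusted p = 1) or between Dro1-NIL and IR64 (0.53 ± 1.14, edgeR adjusted p = 1).

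LAZY1 had 0 reads in Dro1-NIL under both treatments. In KP it had 2 reads under drought and 0 under control. In IR64 it had 2 reads under drought and 1 under control. No read of qSOR1 was counted in any of the 17 libraries of Dro1-NIL, KP and IR64, which allows up to 0.0475 CPM in Dro1-NIL, 0.0337 CPM in KP and 0.0332 CPM in IR64 by the floor of 3 reads over both treatments. The exact Poisson intervals of these counts of 0 end at 0.0584 CPM in Dro1-NIL, 0.0415 CPM in KP and 0.0408 CPM in IR64.

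DRO1 and TAC1 lie on the same chromosome, and their neighbours were compared in control leaves of the 3 lines. Between Dro1-NIL and IR64, 42 of the 28297 tested genes were called, or 0.148%. Of these, 26 were genes of chromosome 9, from LOC_Os09g26400 to LOC_Os09g32620 in the order of the identifiers. DRO1 lay inside that stretch, with 8 of the called genes before it and 18 after it. The nearest called genes stood 9 tested genes before DRO1 (LOC_Os09g26700) and 39 after it (LOC_Os09g27610). Of the 10 tested genes next to DRO1, 5 on each side, 0 were called between Dro1-NIL and IR64 and 0 between KP and IR64 (edgeR). The largest difference among them between Dro1-NIL and IR64 was that of LOC_Os09g26920, with 0.942 CPM in Dro1-NIL and 0.358 CPM in IR64, and it was not called (edgeR adjusted p = 1). TAC1 lay 153 tested genes beyond the end of the stretch, and 0 of its 10 neighbours were called between Dro1-NIL and IR64. Against the 0.148% called over all tested genes, 0 of 10 is not a low count for either gene.

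Between KP and IR64, 1 of the 10 neighbours of TAC1 was called, where 32.6% of all tested genes were. This count and the 0 of 10 next to DRO1 both lie below that share. Whether they are low for so few genes was not tested. The called gene was LOC_Os09g35970, directly before TAC1, with 159 CPM in KP and 73.4 CPM in IR64 (means, n = 3 each; log2 fold change 1.11, edgeR adjusted p = 4.3e-12). In Dro1-NIL LOC_Os09g35970 had 71.1 CPM, close to IR64. LOC_Os09g35940, 3 tested genes before TAC1, was at 235 CPM in KP and 100.4 CPM in IR64 and was not called (edgeR adjusted p = 0.054); in Dro1-NIL it was at 74.3 CPM. The difference in TAC1 between KP and IR64 was larger on the log2 scale than those of its 10 neighbours, which ran from -0.32 to 1.23.

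**Figure D5:**
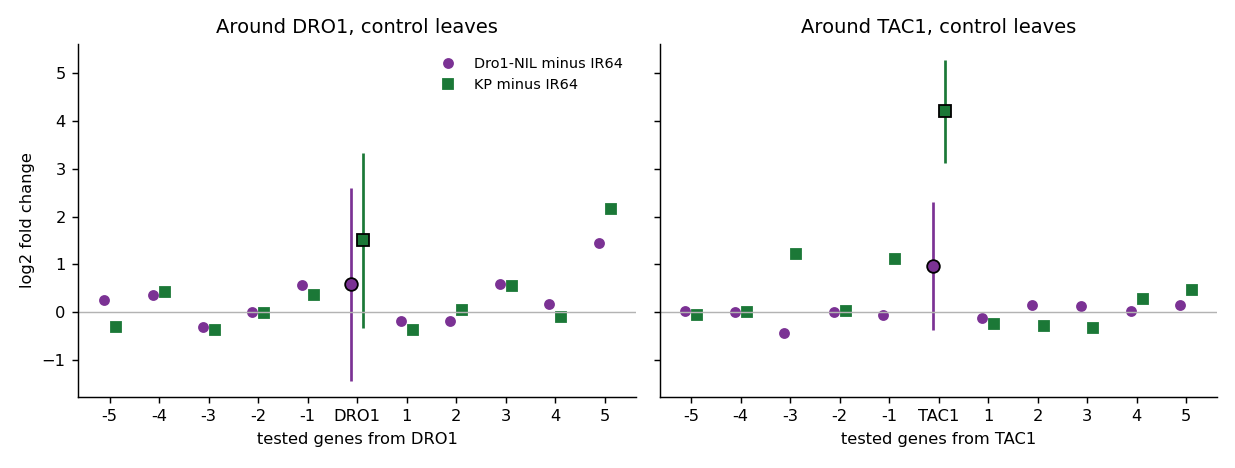
Log2 fold change in control leaves of Dro1-NIL against IR64 (circles) and KP against IR64 (squares) for DRO1 and TAC1 (outlined, with approximate 95% intervals) and for the 5 tested genes on each side in identifier order. TAC1 stands at 4.20 in KP against IR64 while its neighbours lie between -0.32 and 1.23, and both intervals of DRO1 include 0.

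The gene whose control levels were most like those of TAC1 was LOC_Os04g25990 of chromosome 4, with a Pearson's r of 0.813 over 40 cultivar means of log2 CPM, the highest among 19768 genes of at least 1 CPM. LOC_Os04g25990 had 16.3 ± 0.649 CPM in KP and 1.91 ± 0.14 CPM in IR64 (SD, n = 3 each), and 2.34 ± 0.216 CPM in Dro1-NIL. In WRC09 it had 17.1 ± 0.671 CPM under drought and 14.4 ± 1.17 CPM under control. It thus did not share the low control level of TAC1 there. In WRC04 it had 2.14 ± 0.413 CPM under drought and 2.17 ± 0.673 CPM under control. That is near its level in IR64, although TAC1 of WRC04 lay in the upper range. For DRO1 the most alike gene was LOC_Os01g56969 of chromosome 1, with an r of 0.765 among 19769 genes. Its control means were highest in WRC01, 9.66 ± 1.16 CPM, and Koshihikari, 9.2 ± 1.21 CPM, the cultivars that were also highest in DRO1 under control. These coefficients are the largest of many and are given as a description. For TAC1 the 40 means fall into the separate ranges described above, and its coefficient cannot be told apart from membership of a range. Both are taken over libraries that share depth and ancestry, and for DRO1 over values near the floor. No such gene is given for qSOR1 and LAZY1, which did not pass the filter.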

How the data were processed

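Per the submitters' processing notes, the authors used STAR and featureCounts 2.0.0 with the build IRGSP-1.0, and deposited raw read counts per gene. Strand-specific libraries were made, per the labels' protocols; the strand setting and the treatment of reads with several positions are not given in the sources used here, so reads of overlapping genes cannot be told apart. IRGSP-1.0 is the genome of Nipponbare, and what sequence differences of other cultivars do to the counts was not tested. Members and lists were chosen with earlier results of these data known.

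The counts were fitted with edgeR 4.0.16 in R 4.3.3 (quasi-likelihood, TMM, filterByExpr with a minimum count of 10, trended dispersion from 2000 genes), with cultivar as a term for drought over 40 cultivars and otherwise 1 mean per cultivar and treatment. Calls are at a Benjamini-Hochberg adjusted p under 0.05 over 28297 genes. Standard errors are the log2 fold change divided by the square root of its F value. The procedure was run on simulated counts with a single fixed dispersion and without the differences among cultivars of the real data. Its performance at counts as low as those of DRO1 was not examined separately. CPM uses the same scaled totals, and log2 CPM a prior count of 2. DESeq2 1.42.0 was an alternative. Intervals are exact at 95%. Permutation tests were two-sided with 100000 draws.

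Named genes were the members, the gene most like each, and, within 5 tested genes of DRO1 and TAC1, the one that differed most between Dro1-NIL and IR64. LOC_Os09g35970 and single cultivars were chosen after their values were seen. Lists of other angle genes and of leaf and root markers matched no identifier, so the tissue was not checked. Relations between members across cultivars were not computed, since qSOR1 and LAZY1 were near 0 and TAC1 fell into clusters. Replicate numbers were not used to pair the treatments in the main fits. Over 119 pairs of the same number, deviations correlated at -0.674 to 0.471 with a median of 0.068, and 46 pairs exceeded 0.1. Pairs of different numbers were not compared, so whether the numbers pair the libraries was not settled.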

Additional observations from a re-analysis of the deposited data

Results flagged for a closer look

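The drought response of TAC1 differed among the 40 cultivars in the test of the difference itself (edgeR adjusted p = 2.8e-05). WRC09 had 2.12 ± 0.75 CPM of TAC1 under drought and 0.0515 ± 0.0893 CPM under control (SD, n = 3 each), and without it the adjusted p was 0.71. The other 39 cultivars lay on the same side of the TAC1 gap in both treatments. WRC09 also had 3141 genes called within it at a fold of at least 2, 11.1% of those tested, and the part of that difference in its TAC1 values was not tested.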

How the results depend on the processing

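Over 26 results and 242 alternatives, 228 kept their direction and their side of the threshold. With RLE size factors DRO1 was called as higher under drought (log2 fold change 0.35). For TAC1, the differences of the response among cultivars were not called without WRC09 (0.71), and 0 cultivars were then called within cultivars. Leaving out a replicate number gave adjusted p of 0.0027 to 0.36 for that difference, and of 0.0027 to 0.081 under drought and 0.015 to 0.1 under control for DRO1 among cultivars. It gave log2 fold changes of -0.18 to 0.00 (0.0036 without replicate 2) for TAC1 over 40 cultivars. Without replicate 2, or without replicate 1 for the difference of response in DRO1, signs also turned in comparisons that were not called. For Dro1-NIL against IR64 under drought the ranges were -4.50 to 0.49 (DRO1) and -2.50 to 3.24 (TAC1), for KP against IR64 under drought -1.43 to 0.47 (DRO1), for Dro1-NIL against KP under drought -4.97 to 1.92 (DRO1), and for the difference of response between Dro1-NIL and IR64 -4.74 to 0.26 (DRO1) and -3.80 to 1.99 (TAC1). Fewer libraries entered these fits; without replicate 2 or 3 Dro1-NIL has 1 drought library, assumed to vary like the other groups. TAC1 was called in each alternative run in KP against IR64 (5.55 to 7.60 under drought and 3.55 to 4.52 under control without a replicate number) and in Dro1-NIL against KP (-8.08 to -3.95 under drought and -3.45 to -3.04 under control). With the replicate number as a block, drought over 40 cultivars gave 0.26 for DRO1 (adjusted p = 0.17) and -0.09 for TAC1 (0.47), and no call changed; within cultivars and among cultivars under drought it was not run. With the block on the 3 lines alone, chosen after seeing the data, TAC1 in KP against IR64 was 5.73 under drought and 4.19 under control. DRO1 did not pass the filter on the 3 lines alone. Drought replicates numbered 3 had a median of 6.57 M reads, where 3 reads correspond to 0.457 CPM. Depth thus limits DRO1, LAZY1, qSOR1 and low TAC1 most.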

Other observations

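Among the 19768 genes compared with TAC1 over control cultivar means, the gene at the opposite end was LOC_Os09g36100 of chromosome 9 (r = -0.80), and LOC_Os09g36020, 4 tested genes after TAC1, ranked 5 from the top (r = 0.77). Both were named after their values were seen. LOC_Os09g36020 did not differ by the test between KP and IR64 in control leaves, with 13.7 CPM in KP and 11.2 CPM in IR64 (edgeR adjusted p = 0.093). For DRO1 the opposite end was LOC_Os09g32840, also of chromosome 9 (r = -0.73), while the 10 tested genes next to DRO1 had r between -0.25 and 0.23.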
